A study of Mus musculus with 8 samples.

Results

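The genes described here are 10 genes of the zymogen granule and of its release in the pancreas of lean and obese mice. They were chosen by symbol, for what their proteins do in the acinar cell, and all 10 were found among the 15047 gene symbols of the deposited RNA-Seq values. They are the granule proteins Zg16, Sycn and Cuzd1, the granule glycoproteins Gp2 and Dmbt1, the Rab GTPases Rab3d and Rab27b, the SNARE Vamp8, its partner Stxbp2, and Erp27 of the endoplasmic reticulum. The pancreas of 8 male mice was sequenced. The LFD group (n = 3) and the HFD group (n = 3) were C57BL/6 WT mice, fed a low-fat diet or a diet with 60% of its calories from fat for 10 weeks from the age of 4 weeks. The ob/ob group (n = 2) were C57BL/6J mice that lack leptin and were kept on a standard diet, so that its genotype and its diet both differ from those of the LFD group and cannot be told apart. By the study's methods, the pancreas of every group had received a transplant of mT organoids, a culture grown from mouse pancreatic tumors, which the sample labels do not mention. The tissue may therefore hold graft as well as host pancreas, and the age at which it was taken is not given in the sources used here.

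Acinar cells make the digestive enzymes of the pancreas as inactive precursors, fold them in the endoplasmic reticulum and pack them into zymogen granules, which wait under the apical membrane. Hormones and nerves that raise calcium in the cell trigger fusion of these granules with the apical membrane. Rab GTPases mark the mature granule, and SNARE proteins, held in check and assisted by Sec1/Munc18 (SM) proteins such as the product of Stxbp2, carry out the fusion.

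Promoter sequences of 6 of the 10 genes were found in RefSeq (build GRCm38.p6), as windows from 250 bases before to 50 bases after the start of transcription. Those of 4 genes are shown, 5′ to 3′ on the strand of the gene, because they belong to the granule genes Gp2 and Sycn and the Rab gene Rab3d, which were low in the mice with few enzyme transcripts, and to Stxbp2, which differed least between HFD mice. Capitals mark a match to AGATAA, a motif of GATA factors, in Gp2 and Sycn, and a match to the E-box CACCTG in Stxbp2, all of them on the opposite strand.
Gp2 (chr7:119459223-119459522, minus strand): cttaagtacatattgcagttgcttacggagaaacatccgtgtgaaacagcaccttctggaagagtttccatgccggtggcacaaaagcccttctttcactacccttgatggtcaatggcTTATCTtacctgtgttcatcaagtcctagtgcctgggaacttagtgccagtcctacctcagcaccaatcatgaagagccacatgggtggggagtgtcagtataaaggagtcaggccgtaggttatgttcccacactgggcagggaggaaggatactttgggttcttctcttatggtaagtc
Sycn (chr7:28540635-28540934, plus strand): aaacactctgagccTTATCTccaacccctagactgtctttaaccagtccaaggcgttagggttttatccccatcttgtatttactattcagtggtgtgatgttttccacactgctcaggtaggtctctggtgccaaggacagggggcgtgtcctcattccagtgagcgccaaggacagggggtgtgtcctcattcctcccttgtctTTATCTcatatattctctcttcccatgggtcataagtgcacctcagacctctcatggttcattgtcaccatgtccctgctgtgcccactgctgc
Rab3d (chr9:21918134-21918433, minus strand): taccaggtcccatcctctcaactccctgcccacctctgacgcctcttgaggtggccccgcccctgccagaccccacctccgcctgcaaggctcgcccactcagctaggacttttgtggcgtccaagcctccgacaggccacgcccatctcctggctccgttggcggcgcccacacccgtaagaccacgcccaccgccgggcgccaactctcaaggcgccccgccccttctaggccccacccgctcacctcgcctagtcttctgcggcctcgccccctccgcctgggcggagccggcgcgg
Stxbp2 (chr8:3630859-3631158, plus strand): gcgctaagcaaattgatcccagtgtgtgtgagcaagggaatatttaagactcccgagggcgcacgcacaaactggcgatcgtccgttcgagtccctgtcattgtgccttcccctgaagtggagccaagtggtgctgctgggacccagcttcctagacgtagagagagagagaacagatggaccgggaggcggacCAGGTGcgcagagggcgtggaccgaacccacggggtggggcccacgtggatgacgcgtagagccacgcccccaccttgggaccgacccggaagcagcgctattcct

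Both strands of these windows were searched for 4 motifs. The first was the E-box CACCTG, and the next was another form of the E-box, spelled CATATG. Also searched was the string TTTCCC, which is part of the site bound by the acinar factor complex PTF1. The last, AGATAA, is a motif of GATA factors, and none of the 4 contains another. AGATAA was found in 2 of the 6 windows, those of Sycn and Gp2, and in 11.2% of all 32851 promoters of the reference. The first match lay at position -236 in Sycn and at position -131 in Gp2, counted from the start of transcription. CACCTG was found in 1 of the 6, that of Stxbp2 at position -56, against 20.2% of all promoters. The promoters of the digestive enzymes (25 promoters of 24 genes) held CACCTG in 56% of cases and AGATAA in 20%. TTTCCC, in 25.2% of all promoters and 40% of those of the enzymes, and CATATG, in 3.91% and 0%, were in none of the 6 windows. These matches describe letters in a window and not binding.

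The deposited values are rlog values, which are counts corrected for library size on the log2 scale. They are not divided by gene length, so levels are compared between mice and not between genes. Counts were not used here, so sequencing depth is unknown. Errors are those between mice, which are different animals. The median of all genes lay between 7.09 and 7.25 in every mouse. The mean of 29 measured digestive enzymes lay between 17.08 and 17.68 in the LFD mice, so the transcripts that define exocrine pancreas were present. HFD replicate 3 stood apart by genes of gut epithelium. The mean of the 5 measured markers of 10 was 10.21 in this mouse and between 5.10 and 6.38 in the other mice, with Lct, the lactase of the small intestine, at 11.09 against at most 4.96. Gut epithelium is also known to make Zg16 and Dmbt1. The HFD differences of the 10 genes from LFD are therefore given with and without this mouse. The part of gut tissue in them was not tested.

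Zg16 codes for a lectin-like protein that links enzyme aggregates to the granule membrane. Its rlog values were 17.73, 17.97 and 18.19 in the LFD mice, 18.05, 15.70 and 14.24 in the HFD mice, and 17.11 and 14.17 in the ob/ob mice. HFD replicate 1 lay within the LFD range, whereas both ob/ob mice lay below it. The log2 difference was -1.97 in HFD (95% interval -4.55 to 0.61) and -2.33 in ob/ob (-5.21 to 0.56), that is 3.92-fold and 5.02-fold lower levels, and neither passed limma's test (adjusted p = 0.349 and 0.329). The HFD difference was -1.09 without HFD replicate 3 and -3.00 without HFD replicate 1.

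Sycn codes for syncollin, a protein on the inner face of the granule membrane. It measured 17.99, 18.06 and 18.42 in LFD, 18.75, 16.49 and 14.46 in HFD, and 18.36 and 14.82 in ob/ob. HFD replicate 1 was the highest of all mice and HFD replicate 3 the lowest, so the groups overlapped in each comparison. The differences from LFD were -1.59 in HFD (-4.62 to 1.44) and -1.56 in ob/ob (-4.95 to 1.82), with adjusted p of 0.507 and 0.558 in limma. That in HFD was -0.54 without HFD replicate 3 and -2.68 without HFD replicate 1.

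Cuzd1, a granule protein with CUB and zona pellucida domains, had values of 15.19, 15.52 and 15.96 in LFD, 15.81, 13.55 and 11.59 in HFD, and 14.83 and 11.93 in ob/ob. Only HFD replicate 1 of the 5 obese mice reached the LFD range. Mean levels differed from LFD by -1.91 in HFD (-4.32 to 0.50) and by -2.18 in ob/ob (-4.87 to 0.51), with adjusted p of 0.332 and 0.328 in limma. Without HFD replicate 3 the HFD value was -0.88, and without HFD replicate 1 it was -2.99.

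Gp2, the major glycoprotein anchored in the granule membrane, measured 17.03, 17.25 and 17.47 in LFD, 16.68, 14.94 and 13.12 in HFD, and 16.43 and 13.68 in ob/ob. All 5 obese mice lay below all LFD mice. Gp2 showed the largest difference of the 10 genes between HFD and LFD, -2.34 (-4.61 to -0.07), a 5.05-fold lower level with an adjusted p of 0.246 in limma. In ob/ob the difference was -2.19 (-4.73 to 0.35), with an adjusted p of 0.308.

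Dmbt1 codes in the mouse for the precursor of the granule mucin-like protein muclin. Its values were 18.95, 19.14 and 18.80 in LFD, 18.48, 17.19 and 15.33 in HFD, and 18.30 and 15.71 in ob/ob. The groups did not overlap, although the closest LFD and obese mice were near to each other. The differences of -1.97 in HFD (-4.80 to 0.86) and -1.96 in ob/ob (-5.13 to 1.20) had adjusted p of 0.388 and 0.434 in limma. Leaving out HFD replicate 3, the mouse with gut genes, gave -1.13 in HFD (adjusted p = 0.742), and leaving out HFD replicate 1 gave -2.71.

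Erp27 codes for an endoplasmic reticulum protein of the protein disulfide isomerase family that binds substrates and lacks the catalytic site. It measured 13.15, 13.25 and 13.73 in LFD, 13.78, 11.41 and 9.49 in HFD, and 12.84 and 9.87 in ob/ob. HFD replicate 1 was the highest of the 8 mice, and the other obese mice lay below the LFD range. Erp27 differed from LFD by -1.82 in HFD (-4.21 to 0.57) and by -2.02 in ob/ob (-4.69 to 0.66), with adjusted p of 0.350 and 0.352 in limma. In HFD it was -0.78 without HFD replicate 3 and -2.93 without HFD replicate 1.

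Rab3d, the Rab GTPase best known on mature zymogen granules, was the most even of the 10 genes in LFD, at 11.79, 11.90 and 11.84. It measured 11.47, 10.19 and 9.29 in HFD, and 11.34 and 9.70 in ob/ob. Every obese mouse lay below every LFD mouse. The difference of -1.53 in HFD (-2.80 to -0.26), a 2.88-fold lower level, had the smallest adjusted p of the 10 genes in this comparison, 0.214 in limma, and that in ob/ob was -1.32 (-2.74 to 0.09), with an adjusted p of 0.282. The HFD value moved to -1.02 without HFD replicate 3 and to -2.10 without HFD replicate 1.

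Rab27b, another Rab GTPase of the granule, measured 8.93, 8.88 and 9.46 in LFD, 9.71, 8.49 and 8.41 in HFD, and 8.94 and 7.50 in ob/ob. HFD replicate 1 was the highest mouse and ob/ob replicate 2 the lowest. The differences from LFD were -0.22 in HFD (-1.23 to 0.79) and -0.87 in ob/ob (-2.0 to 0.26), with adjusted p of 0.797 and 0.345 in limma. Without HFD replicate 3, the HFD difference was 0.01, and without HFD replicate 1 it was -0.64.

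Vamp8, the vesicle SNARE that drives much of regulated granule fusion in acinar cells, measured 10.04, 10.30 and 10.60 in LFD, 10.42, 10.16 and 9.60 in HFD, and 10.15 and 9.49 in ob/ob. Of the obese mice, HFD replicate 3 and ob/ob replicate 2 lay below the lowest LFD mouse, and the other 3 within the LFD range. Vamp8 differed from LFD by -0.25 in HFD (-0.87 to 0.37) and by -0.49 in ob/ob (-1.18 to 0.20), with adjusted p of 0.611 and 0.377 in limma. Its HFD value was -0.02 without HFD replicate 3 and -0.43 without HFD replicate 1.

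Stxbp2 codes for the SM protein Munc18b, which binds apical syntaxins. It measured 9.27, 9.53 and 9.67 in LFD, 9.28, 9.36 and 9.18 in HFD, and 9.17 and 8.83 in ob/ob. Both ob/ob mice lay below all other mice, although replicate 1 was close to HFD replicate 3. The differences from LFD were -0.22 in HFD (-0.61 to 0.18) and -0.49 in ob/ob (-0.93 to -0.05), with adjusted p of 0.485 and 0.244 in limma. Without HFD replicate 3 the HFD value of Stxbp2 was -0.17, and without HFD replicate 1 it was -0.22.

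**Figure D1:**
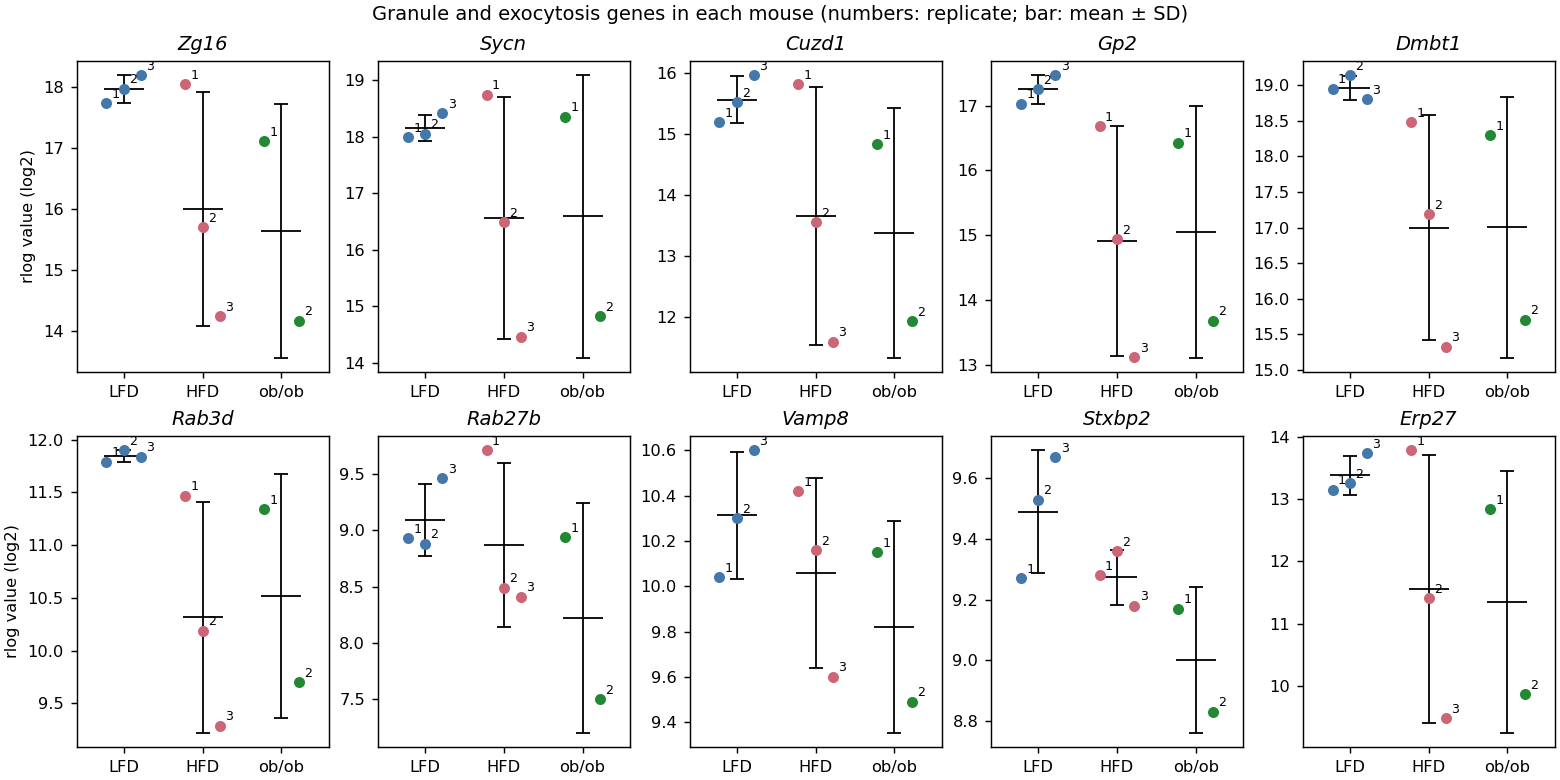
Rlog values (log2, y axis, scaled for each gene) of the 10 genes in each mouse of the LFD, HFD and ob/ob groups, with replicate numbers beside the points and bars for the mean ± SD. For Zg16, the LFD mice sit between 17.73 and 18.19, whereas the HFD mice spread from 14.24 to 18.05 and the ob/ob mice from 14.17 to 17.11.

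All 10 genes had a lower mean in HFD than in LFD, where 47.6% of all genes were below 0, and the median difference was -1.70 against 0.03 over all genes. None passed an adjusted p under 0.05 in limma, and 0 of all 15047 genes did (0%). At an unadjusted p under 0.05, 2 of the 10 were lower, Gp2 and Rab3d, against 8.35% of all genes. This count was 0 when any LFD mouse, HFD replicate 2 or HFD replicate 3 was left out. It was 7 without HFD replicate 1 or with array weights, and 1 with quantile normalization. The share of all genes at this threshold is not given for these refits, so 8.35% is not their background. The groups did not overlap for 3 of the 10, Gp2, Dmbt1 and Rab3d, all lower in HFD, against 12.3% of all genes. Leaving out HFD replicate 1, the mouse nearest to the LFD group, made 4 genes pass in limma, with adjusted p of 0.0221 for Rab3d, 0.0383 for Gp2, 0.0432 for Erp27 and 0.0441 for Cuzd1, along with 2812 of all genes. Array weights of limma did not converge. They gave 9.36 to HFD replicate 2, against 0.273 for HFD replicate 1 and 0.529 for HFD replicate 3, so that fit rests mostly on 1 HFD mouse. With these weights 6 passed, along with 6656 of all genes. Without HFD replicate 3, the mouse with gut genes, none passed and the Gp2 difference was -1.44 (adjusted p = 0.572).

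In ob/ob, all 10 means were again below those of the LFD group, against 46.9% of all genes, with a median difference of -1.76 against 0.04. Limma gave 0 genes with an adjusted p under 0.05, among the 10 and over all genes (0%), and 1 of the 10, Stxbp2, at an unadjusted p under 0.05 and lower, against 7.18% of all genes. For 7 of the 10 the groups did not overlap and ob/ob was lower, against 21.8% of all genes. These were Zg16, Cuzd1, Gp2, Dmbt1, Rab3d, Stxbp2 and Erp27. The sizes rest on ob/ob replicate 2. Without it, differences ran from -0.86 for Zg16 to 0.20 for Sycn. The count at an unadjusted p under 0.05 was 0 without LFD replicate 2 or 3. It was 6 without HFD replicate 1 and 4 without HFD replicate 3, mice that enter the shared spread. With array weights, or when only the LFD and ob/ob mice were fitted, it was 6. Quantile normalization or leaving out the trend gave 0. The share of all genes at this threshold is not given for these refits, so 7.18% is not their background. The HFD and ob/ob comparisons use the same LFD mice.

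**Figure D2:**
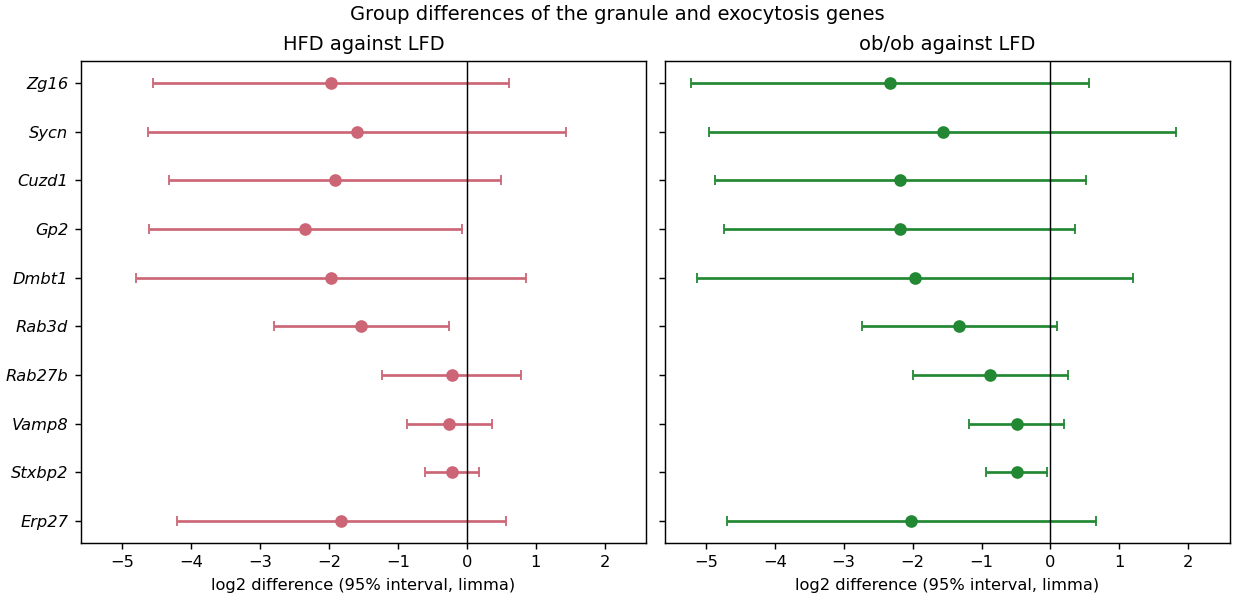
Log2 differences from LFD (x axis) of the 10 genes (y axis) in HFD, left, and in ob/ob, right, with points for limma's estimates and bars for 95% intervals. Granule and reticulum genes sit between -1.56 and -2.34 with wide bars, and Vamp8 and Stxbp2 between -0.22 and -0.49 with narrow ones.

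When both obese groups were averaged and set against LFD, no gene passed in limma at an adjusted p under 0.05, among the 10 or over all (0%). Rab3d at -1.43 (adjusted p = 0.145) and Gp2 at -2.26 (adjusted p = 0.170) were the 2 genes with an unadjusted p under 0.05, both lower, against 10.9% of all genes. Leaving out 1 LFD or HFD mouse moved this count to 0 (LFD replicate 2 or 3), 1 (LFD replicate 1 or HFD replicate 2) or 7 (HFD replicate 1). It was 8 with array weights and 4 without the trend. The share of all genes at this threshold is not given for these refits, so 10.9% is not their background. Gp2, Dmbt1 and Rab3d were the 3 whose obese mice all lay below all LFD mice, against 9.05% of all genes. Without HFD replicate 1, 5 of the 10 passed (Rab3d, Gp2, Cuzd1, Erp27 and Zg16, with adjusted p from 0.0201 to 0.0440), along with 3326 of all genes. Lower levels in a whole tissue can come from fewer acinar cells or from less RNA in each of them, and these cannot be told apart in bulk samples.

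Between ob/ob and HFD, the differences of the 10 genes ran from -0.65 for Rab27b to 0.20 for Rab3d, 6 of them below 0, against 48.3% of all genes. This count was 1 without ob/ob replicate 2, 3 without HFD replicate 1, and 10 without HFD replicate 3 or ob/ob replicate 1. None passed in limma at an adjusted p under 0.05, among the 10 or over all genes (0%), and 0 of the 10 had an unadjusted p under 0.05 and a lower level, against 1.63% of all genes. Stxbp2 was the only one of the 10 without overlap, lower in ob/ob by 0.27 (-0.71 to 0.17, adjusted p = 1 in limma), against 5.42% of all genes. Most intervals were wide. That of Zg16 ran from -3.24 to 2.53, so the comparison could not show whether the 2 kinds of obese mice differ.

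The obese mice did not form uniform groups. HFD replicate 3 and ob/ob replicate 2 lay below every LFD mouse for 10 of the 10 genes, against 36.2% and 34.8% of all genes. HFD replicate 2 did so for 8, ob/ob replicate 1 for 7 and HFD replicate 1 for 3, against 32.9%, 30.0% and 27.8% of all genes. In HFD replicate 1, 3 genes lay above every LFD mouse, Sycn, Rab27b and Erp27, against 26.4% of all genes. HFD replicate 3 was the lowest mouse for 6 of the 10 genes and ob/ob replicate 2 for the other 4. Over the 10 genes, the median difference from the LFD mean was 0.10, -1.73 and -3.67 for the HFD mice in the order of their replicate numbers. For the ob/ob mice it was -0.52 and -3.30.

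The spread between mice of a group differed as much among the 10 genes. In HFD, the highest and the lowest mouse were 4.29 apart for Sycn and Erp27, and 99.6% of all genes had a smaller range. For Rab3d the range was 2.17, for Rab27b 1.30 and for Vamp8 0.81. For Stxbp2 it was 0.18, and only 6.35% of all genes had a smaller one. In LFD, the median range of the 10 genes was 0.45, close to the 0.43 over all genes, and in ob/ob it was 2.67 against 0.40.

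**Figure D3:**
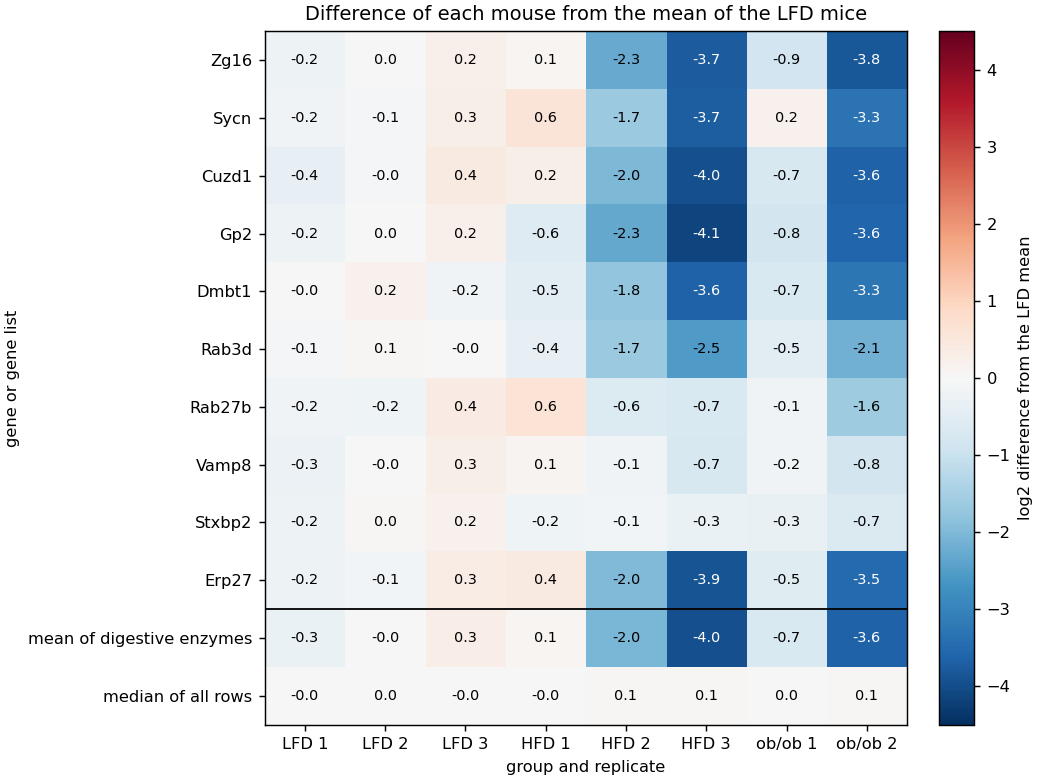
Log2 difference from the mean of the LFD mice (color and number) for the 10 genes, the mean of the digestive enzymes and the median of all genes (rows) in each mouse (columns). HFD replicate 3 and ob/ob replicate 2 reach -4.13 and -3.80, whereas the median of all genes stays between -0.03 and 0.07.

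The next comparison asked whether the granule genes differed between groups by more or less than the enzymes that the granules store. The mean of the 29 enzymes, none of which is among the 10 genes, was subtracted in each mouse. This mean measured 17.08, 17.38 and 17.68 in LFD, 17.47, 15.33 and 13.43 in HFD, and 16.69 and 13.75 in ob/ob. All 29 enzymes were lower in both obese groups, with median differences of -2.0 and -2.10. In limma 0 passed an adjusted p under 0.05. At an unadjusted p under 0.05, 2 and 3 were lower, against 8.35% and 7.18% of all genes. The trypsin gene Try4, at -2.30 and -2.68, and the phospholipase gene Pla2g1b, at -2.32 and -2.65, were among the largest.

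Relative to the enzymes, Cuzd1 and Zg16 varied little from mouse to mouse. Cuzd1 lay at -1.82 ± 0.09 in LFD (SD, n = 3), -1.76 ± 0.09 in HFD (n = 3) and -1.84 ± 0.03 in ob/ob (n = 2). Zg16 lay at 0.58 ± 0.07, 0.59 ± 0.22 and 0.42 ± 0.00 in the same groups. Both genes thus followed the enzymes across a range in which their own levels differed by about 4 log2 units.

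Erp27, a protein of the reticulum and not of the granule, kept as close, at -4.00 ± 0.11, -3.85 ± 0.14 and -3.86 ± 0.02. Dmbt1 lay at 1.59 ± 0.40, 1.59 ± 0.50 and 1.78 ± 0.25. Gp2 lay at -0.13 ± 0.07, -0.50 ± 0.25 and -0.16 ± 0.14, and Sycn at 0.78 ± 0.12, 1.16 ± 0.13 and 1.37 ± 0.42. Sycn was thus higher relative to the enzymes in each of the 5 obese mice, by 0.26 to 0.89 from the LFD mean. Nearly all genes were higher in this way, with only 0.419% of all genes below 0 in HFD and 0.352% in ob/ob. Their median was 2.0 in HFD and 2.20 in ob/ob. Limma's difference for Sycn was 0.38 in HFD (adjusted p = 0.329) and 0.59 in ob/ob (adjusted p = 0.335).

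The genes of the release machinery differed less between mice than the enzymes did. Stxbp2 lay at -7.89 ± 0.10, -6.14 ± 1.98 and -6.22 ± 1.84 in the 3 groups, in the same order. Its difference from the LFD mean, after the subtraction, was -0.30, 1.91 and 3.65 in the HFD mice and 0.37 and 2.97 in the ob/ob mice. These values are large in the mice whose enzymes were low.

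Vamp8 gave 0.02, 1.89 and 3.24 in the HFD mice, and 0.53 and 2.81 in the ob/ob mice. For Rab27b the values were 0.54, 1.44 and 3.27 in HFD, and 0.53 and 2.04 in ob/ob. Rab3d stood between these and the granule genes, at -0.46, 0.39 and 1.40 in HFD, and 0.19 and 1.48 in ob/ob. In limma, the relative differences in HFD were 1.75 for Stxbp2 (-0.97 to 4.48) and Rab27b, 1.72 for Vamp8 and 0.44 for Rab3d, and those in ob/ob were 1.67, 1.29, 1.67 and 0.83. Without HFD replicate 3, the relative differences in HFD were 0.81 for Stxbp2, 0.99 for Rab27b, 0.96 for Vamp8 and -0.04 for Rab3d. The median over all genes is not given for that refit.

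None of the 10 genes passed an adjusted p under 0.05 in limma relative to the enzymes, in HFD or ob/ob against LFD (0.0199% of all genes each) or in ob/ob against HFD (0%), and 0 of the 10 had an unadjusted p under 0.05. The median relative difference over all genes was 2.0 in HFD and 2.20 in ob/ob, so a gene that did not differ between mice stands near these values, and those of Stxbp2, Vamp8 and Rab27b in HFD were close to them. The subtracted mean is shared by all genes, and limma then took the spread of a gene from its level alone, so the SDs above show the spread between mice more directly than its intervals. Without HFD replicate 1, Stxbp2 passed in HFD against LFD, together with 9825 of all genes. The enzyme means fell apart, with gaps of 1.58 and 1.36 between neighbouring mice against at most 0.39 elsewhere, so that a correlation with them over all mice was not given.

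**Figure D4:**
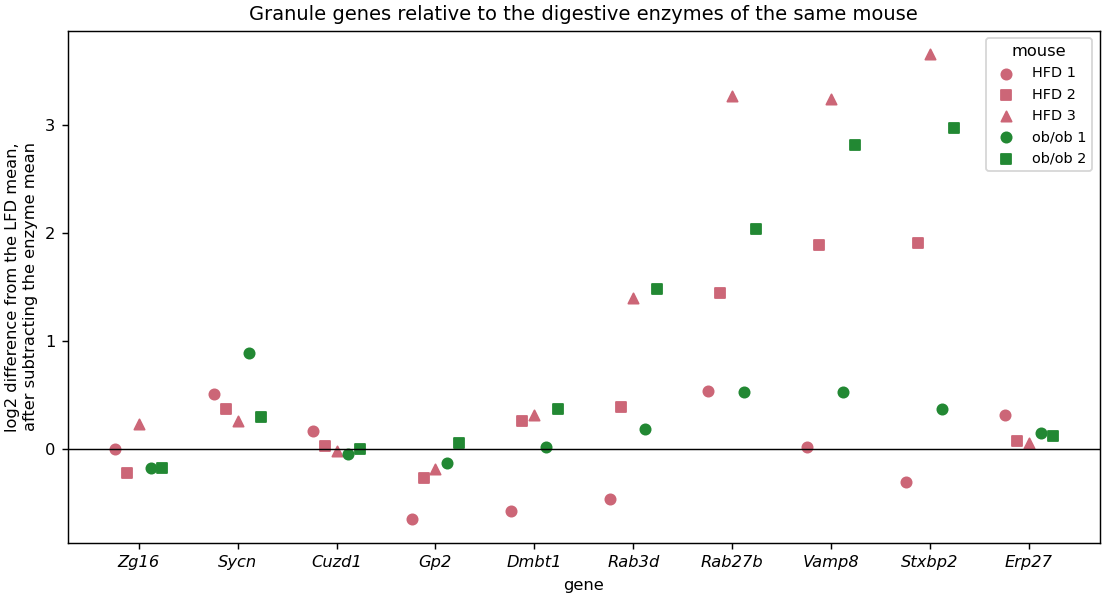
Log2 difference from the LFD mean after subtraction of the enzyme mean of the same mouse (y axis) for the 10 genes (x axis) in the 5 obese mice (symbols). Zg16, Cuzd1 and Erp27 stay between -0.22 and 0.32 in all 5 mice, whereas Stxbp2 runs from -0.30 in HFD replicate 1 to 3.65 in HFD replicate 3.

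Among 11823 genes with a mean of at least 5, those with the pattern most like the mean of the 10 genes over the 8 mice were Pnliprp2, 2210010C04Rik, Klk1, Pcbd1 and Cela2a, each with a Pearson r of 0.999. Pnliprp2, Klk1 and Cela2a are enzyme genes, coding for a lipase, a kallikrein and an elastase. Pcbd1 codes for a cofactor-recycling enzyme that also binds HNF1 factors. These values are a description over 8 mice that fall apart into clusters, as for the enzyme means, so a high r says little beyond that order.

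Zg16, Sycn, Cuzd1, Gp2 and Dmbt1 all lie on chromosome 7, as do 7.97% of the 14936 genes that could be placed. Their positions in GRCm38 are 127050156 to 127087328 for Zg16, 28540885 to 28542209 for Sycn, 119442537 to 119459285 for Gp2, 131032053 to 131121630 for Dmbt1 and 131308554 to 131322292 for Cuzd1. Dmbt1 and Cuzd1 are 186923 bases apart, with 2 protein-coding genes between them, 5430419D17Rik and 4933402N03Rik. The first of these, named after its values were seen, measured 10.00, 10.05 and 9.83 in LFD, 9.70, 8.22 and 6.05 in HFD, and 8.75 and 6.66 in ob/ob, so it was low in the same mice as its neighbours. Its difference in HFD was -1.97 (adjusted p = 0.247 in limma).

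Other Rabs and effectors of secretion (33 of 34 measured) were below 0 for 25 in HFD and for 23 in ob/ob against LFD, with median differences of -0.12 and -0.30. None passed an adjusted p under 0.05 in limma, and 7 and 9 were lower, and 2 and 4 higher, at an unadjusted p under 0.05 (8.35% and 7.18% of all genes were lower, 11.5% and 11.6% higher). Rab26, a Rab of the maturing granule, measured 8.43, 8.45 and 8.65 in LFD, 8.0, 6.53 and 5.09 in HFD, and 7.89 and 5.64 in ob/ob. It followed the order of the granule genes, with differences of -1.97 and -1.75. Sytl1, a synaptotagmin-like effector of Rab27 proteins, differed by -1.82 and -1.83, Myrip, another effector, by -1.55 and -1.95, and Rab27a, the paralog of Rab27b, by -1.07 and -1.0.

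Another order of mice appeared in 3 genes of the same machinery, Rph3al, Rab3a and Vamp2. Rph3al, coding for the Rab effector Noc2, measured 7.42, 7.00 and 7.63 in LFD, 5.97, 6.02 and 5.75 in HFD, and 6.09 and 5.06 in ob/ob. HFD replicate 1, near to LFD for the granule genes, was as low here as the other HFD mice. The differences were -1.44 (-2.15 to -0.72, adjusted p = 0.175) and -1.78 (-2.57 to -0.98, adjusted p = 0.139) in limma.

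Rab3a, the paralog of Rab3d best known in neurons and endocrine cells, measured 6.67, 6.85 and 7.11 in LFD, 5.70, 5.29 and 5.24 in HFD, and 6.20 and 5.67 in ob/ob. Its differences of -1.47 (-2.07 to -0.87) and -0.94 (-1.60 to -0.27) had adjusted p of 0.169 and 0.209. Vamp2, the SNARE paralog of Vamp8, measured 6.62, 6.53 and 6.76 in LFD, 5.80, 5.81 and 5.94 in HFD, and 5.92 and 5.50 in ob/ob. It differed by -0.78 and -0.93, with adjusted p of 0.180 and 0.189. All obese mice lay below all LFD mice for these 3 genes, as for 9.05% of all genes, and islet cells express them too. In the lists from which they were taken, this held for 8 of 33 Rabs and effectors. Among SNAREs, SM proteins and fusion factors it held for 2 of 34. The mean of 10 islet markers was 8.60 to 9.63 in LFD, 8.35 to 8.78 in HFD, and 10.21 and 9.24 in ob/ob, with 9 of the 10 below 0 in HFD (median difference -0.45) and 8 above 0 in ob/ob. The part of islet cells in these 3 genes was not tested.

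Other SNAREs, SM proteins and fusion factors (34 of 38 measured) were as often above 0 as below in HFD, 17 of each, and 21 were above and 13 below 0 in ob/ob, with median differences of 0.01 and 0.06. None passed in limma at an adjusted p under 0.05, and at an unadjusted p under 0.05 there were 5 lower and 6 higher in HFD, and 4 lower and 6 higher in ob/ob. Over all genes, 8.35% were lower and 11.5% higher in HFD at this threshold, and 7.18% and 11.6% in ob/ob. Syt3, a synaptotagmin, was lower by 1.68 and 1.54, and Unc13b, a priming factor, by 0.63 and 1.25. Stx2, a syntaxin of the plasma membrane, measured 6.45 to 6.74 in LFD, 7.04 to 7.95 in HFD, and 7.29 and 8.51 in ob/ob, a difference of 0.92 and 1.26 (adjusted p = 0.220 and 0.207). Unc13a, listed at the low level of 3.21 to 4.00 in LFD, was higher by 1.56 and 1.31.

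Vamp3 and Stxbp3, relatives of Vamp8 and Stxbp2, varied as little as these. Vamp3 differed from LFD by 0.23 (-0.20 to 0.65) and 0.33 (-0.15 to 0.80), and Stxbp3 by 0.12 (-0.21 to 0.45) and 0.14 (-0.23 to 0.50). Rab3b and Rab3c were listed at levels of at most 3.79. The exocyst, the complex that tethers vesicles, had differences from -0.03 to 0.44 in HFD, and from -0.12 to 0.83 in ob/ob, for its 8 subunits. None of the subunits passed an adjusted p under 0.05 in limma. At an unadjusted p under 0.05, 1 and 2 were higher, against 11.5% and 11.6% of all genes. The medians of the exocyst were 0.09 and 0.24. Exoc2 had the largest difference in HFD and Exoc1 in ob/ob.

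**Figure D5:**
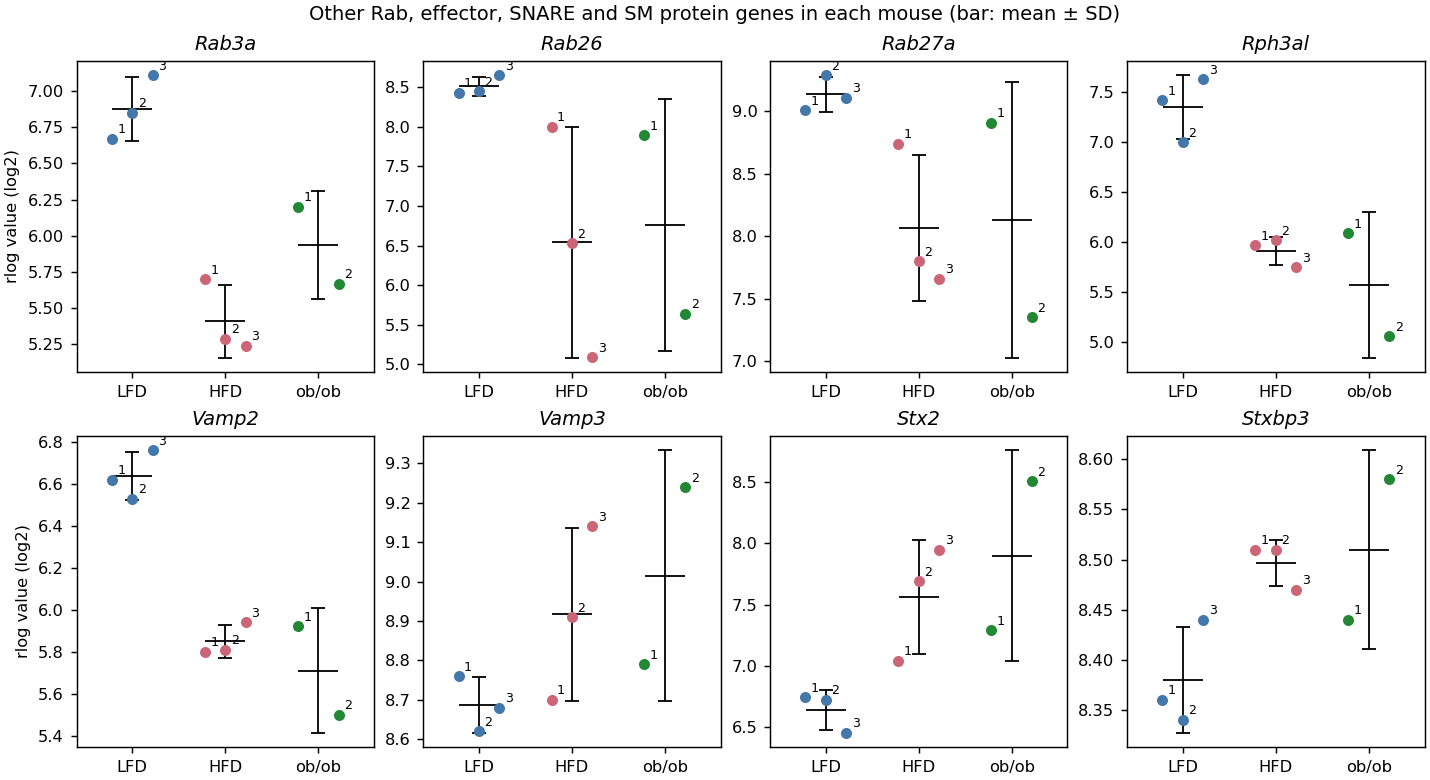
Rlog values (log2, y axis, scaled for each gene) of 8 other genes of granule traffic and fusion in each mouse of the LFD, HFD and ob/ob groups, with replicate numbers and bars for the mean ± SD. Rph3al, Rab3a, Vamp2, Rab26 and Rab27a have all obese mice below the LFD mice. Of these, Rab26 and Rab27a follow the order of the granule genes. Stx2 lies higher in all obese mice.

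Genes upstream of the granule differed among themselves. Among 15 receptors and calcium release genes, the medians were -0.39 and -0.50, and 10 were below and 5 above 0 in each obese group. None passed in limma at an adjusted p under 0.05. At an unadjusted p under 0.05, 2 and 3 were lower, against 8.35% and 7.18% of all genes. Cckar, the receptor for cholecystokinin, measured 12.26 to 12.46 in LFD, 12.15, 10.45 and 8.43 in HFD, and 11.60 and 8.93 in ob/ob, and Chrm3, the muscarinic receptor of acinar cells, differed by -1.25 and -1.24.

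Folding enzymes of the reticulum (22 of 24 measured) were below 0 for 20 in each obese group, with medians of -0.65 and -0.88. Limma passed 0 at an adjusted p under 0.05. At an unadjusted p under 0.05, 9 and 7 were lower, against 8.35% and 7.18% of all genes. Pdia2, a disulfide isomerase of the pancreas, differed by -2.16 and -2.38, and Ero1lb, which reoxidizes such isomerases, by -1.88 and -1.95, as much as Erp27. Pdia3, the isomerase to which Erp27 binds and a gene named here after its values were seen, differed by 0.15 (-0.24 to 0.55) and 0.22 (-0.22 to 0.66).

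The 7 acinar transcription factors were all below 0 in each obese group, with medians of -1.45 and -1.66. None passed in limma at an adjusted p under 0.05. At an unadjusted p under 0.05, 0 and 1 were lower, against 8.35% and 7.18% of all genes. Bhlha15, which codes for MIST1, a factor of granule formation, measured 11.09 to 11.48 in LFD, 11.20, 9.25 and 7.55 in HFD, and 10.35 and 7.69 in ob/ob. Its differences were -1.93 and -2.24. Those of Ptf1a, a subunit of PTF1, were -1.54 and -1.71.

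Some markers of other cells were higher in mice whose granule genes were low. The mean of 10 fibroblast markers was 8.99 to 9.51 in LFD, 9.79 to 10.57 in HFD, and 10.10 and 11.08 in ob/ob. It was highest in HFD replicate 3 and ob/ob replicate 2, the mice with the lowest granule genes. At an unadjusted p under 0.05, 5 of these markers were higher in HFD and 8 in ob/ob, where 11.5% and 11.6% of all genes were, and 0 passed an adjusted p under 0.05 in limma.

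For 12 leukocyte markers the mean was 7.03 to 7.96 in LFD, 7.85 to 8.44 in HFD, and 8.20 and 8.83 in ob/ob, and for 10 duct markers 8.86 to 9.08, 9.14 to 9.86, and 9.18 and 8.55. In the same order of groups, adipocyte markers had means of 6.93 to 7.46, 6.84 to 7.18, and 7.69 and 6.41, and endothelial markers of 7.28 to 8.02, 7.68 to 8.25, and 8.0 and 7.40. None of the markers in these lists or of the islet list passed an adjusted p under 0.05 in limma. At an unadjusted p under 0.05, 6 and 9 leukocyte, 5 and 1 duct, and 0 and 6 islet markers were higher in HFD and in ob/ob. So were 1 and 1 adipocyte and 1 and 0 endothelial markers, against 11.5% and 11.6% of all genes. Lower were 0 and 2 duct markers and 1 and 1 adipocyte markers, against 8.35% and 7.18% of all genes. The lowest value in these lists was 2.37, in the leukocyte list. No gene of the whole set had a value under 0.466, so a value above 0 does not show that a marker was expressed. The part of these cells in the lower levels of the granule genes was not tested.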

How the data were processed

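RNA-Seq was performed on pancreas of 8 male mice, grouped by diet or genotype as the labels give it. The authors quantified transcripts of Gencode (GRCm38.p6) with Salmon 0.11.3, summed them per gene with tximport, and deposited rlog values of DESeq2 1.22.2, which are log2 values corrected for library size. Filters on genes are not described, counts were not used here, depth is unknown, and the labels name no batch. Salmon divides reads among similar transcripts by probability, so close paralogs, such as trypsin genes, carry an error not shown here. The rlog transformation lowers differences of genes with few reads.

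The group comparisons used limma 3.58.1 (R 4.3.3), fitted with 1 mean per group, all 8 mice, and a trend of the variance on the mean. Adjusted p-values are Benjamini-Hochberg values over 15047 genes, and the threshold was 0.05. In a further comparison, the mean of 29 measured digestive enzymes was subtracted in each mouse. Intervals are at 95%. As alternatives, the trend was left out, the fit was limited to the groups compared, or to genes with a mean of at least 5. Others were median centring, quantile normalization, array weights (which did not converge), the replicate number as a block, the enzyme mean as a covariate, the enzyme median as reference, and leaving out each mouse in turn.

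Members and lists (enzymes, exocytosis genes, folding enzymes, transcription factors and markers of other cells) were written by hand, and were chosen with earlier results of these data known. All 10 members are named, and of each other list up to 4 genes with the largest difference from LFD, paralogs of members, and the 5 genes with the most similar pattern. Lists of other cells are given mostly by counts and means, and not every gene under this rule is reported here. Positions were read from Gencode M21, which uses GRCm38.

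The limma step was tested on simulated data for HFD against LFD, with 200 of 15047 genes changed. The test recovered 6%, 88%, 100% and 100% of genes changed by 2, 4, 8 and 16 times the median residual SD. This was at an adjusted p-value of 0.05, with 8 false calls. Every simulated gene had this same SD and varied independently of the others, unlike the real genes. The rates therefore do not describe genes with a spread as large as that of the granule genes.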

Additional observations from a re-analysis of the deposited data

How the results depend on the processing

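With 3, 3 and 2 mice, of which HFD replicate 1 and ob/ob replicate 1 lay near the LFD group, the test had little power for genes whose spread is as large as that of the granule genes, and an adjusted p above 0.05 does not show that a gene did not differ. Depth is unknown. Leaving out an ob/ob mouse leaves a single animal, which is then assumed to vary like the other groups.

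Of the 10 genes, none passed in the comparisons as reported. Array weights, which did not converge, made 6 pass in HFD against LFD and 5 in the mean of both obese groups against LFD. The counts over all genes were then 6656 and 4286. Leaving out single mice gave 0 to 4 of the 10 in HFD against LFD (0 to 2812 of all genes), 0 to 5 in the mean of both groups (0 to 3326), and 0 in ob/ob against LFD (0 to 89 of all genes) and in ob/ob against HFD (0 to 1). Relative to the enzymes, it gave 0 to 1 of the 10 in HFD against LFD (0 to 9825 of all genes, against 3 as reported), and 0 of the 10 in ob/ob against LFD (0 to 32, against 3) and in ob/ob against HFD (0 to 1). The counts over all genes were also 1 in HFD against LFD and 38 in ob/ob against LFD when only the groups compared entered the fit, and 1 with the enzyme covariate in the mean of both groups and in ob/ob against either other group. Without the trend, 0 of all genes passed relative to the enzymes in HFD and 0 in ob/ob against LFD. The cause of these shifts was not tested.

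With the enzyme mean as a covariate, the sign turned positive in HFD against LFD for Sycn (0.59), Rab27b (0.55), Erp27 (0.24), Vamp8 (0.18) and Cuzd1 (0.12), and in ob/ob against LFD for Sycn (0.82), Erp27 (0.23) and Cuzd1 (0.04). By its construction this fit asks for what the enzymes leave. Leaving out single mice also turned signs, over ranges of -0.64 to 0.01 for Rab27b in HFD against LFD, -3.33 to 0.20 for Sycn in ob/ob against LFD, and -1.37 to 0.07 for Rab27b in ob/ob against HFD. Among differences relative to the enzymes, the ranges in HFD were -0.11 to 0.11 for Zg16, -0.23 to 0.29 for Dmbt1 and -0.04 to 0.90 for Rab3d, and in ob/ob -0.05 to 0.03 for Cuzd1, -0.13 to 0.06 for Gp2 and -0.04 to 0.37 for Dmbt1. With the enzyme median as reference, Cuzd1 was at 0.11 and Gp2 at 0.10 in ob/ob. Without the subtraction, differences of single genes from LFD had the reported sign in 310 of 320 refits, the other 10 being those named above. Sizes were less stable than signs. With quantile normalization, the HFD difference was -0.09 for Sycn (reported as -1.59), -0.38 for Dmbt1 (-1.97) and -0.92 for Zg16 (-1.97). In ob/ob these were -0.01 (-1.56), -0.24 (-1.96) and -1.02 (-2.33). Gp2 also differed less in both groups. In HFD, Rab3d at -1.38 (-1.53), Erp27 at -1.71 (-1.82) and Cuzd1 at -1.47 (-1.91) moved less.

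Replicates with the same number are different animals. Their deviations from the group means correlated at -0.060, 0.113 and -0.281 between LFD and HFD. Between LFD and ob/ob they correlated at -0.097 and 0.128, and between HFD and ob/ob at 0.592 and 0.303. HFD replicate 3 and ob/ob replicate 2, with different numbers, correlated at 0.440. The 2 ob/ob mice deviate by equal and opposite amounts, so their values are not separate evidence. As the animals differ, the numbers were not taken to pair the mice. With the replicate block, 0 of the 10 genes passed in each comparison, and the count over all genes was 10 against 3 relative to the enzymes in ob/ob against LFD. At an unadjusted p under 0.05 the block gave 4 of the 10 in place of 1 in ob/ob against LFD, and 5 in place of 2 in the mean of both groups. The share of all genes at this threshold is not given for the block.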
